A study of Mus musculus with 3 samples.

Results

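Antigen presentation on class II molecules of the major histocompatibility complex (MHC) was described through 10 genes, chosen by symbol: the chain genes H2-Aa, H2-Ab1 and H2-Eb1, the invariant chain gene Cd74, the peptide exchange genes H2-DMa and H2-DMb1, and the regulators Ciita, Rfx5, Rfxap and Rfxank. All 10 symbols were found, among 55536 annotated genes of which 22015 were nuclear protein-coding genes. The libraries came from bone marrow-derived macrophages, primary macrophages grown from bone marrow, of C57BL/6J mice, which had received 100 ng/ml of lipid A for 25 minutes. Lipid A is the part of bacterial lipopolysaccharide that Toll-like receptor 4 recognises. RNA of the cytosolic fraction was depleted of ribosomal RNA and sequenced from 3 samples labelled as biological replicates 1 to 3. These form a single group, with no unstimulated library and no other fraction or time among the samples used here, so levels are described and no effect of lipid A was measured. The labels give 3 different biosamples and 1 donor identifier, and the age and sex of the mice are recorded as not collected. The spread given below is therefore that between these samples.

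Class II molecules are heterodimers of an alpha and a beta chain that carry peptides from endosomes to the cell surface, where CD4 T cells read them. New chains assemble on the invariant chain encoded by Cd74, which fills the peptide groove, and H2-DM later exchanges the remaining invariant chain fragment for peptide. Transcription of these genes depends on a promoter complex. The RFX trimer (RFX5, RFXAP and RFXANK) binds the X box, NF-Y binds the Y box, and CIITA, which does not bind DNA itself, is recruited to them. Macrophages hold low or moderate class II levels until interferon-gamma raises CIITA.

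The promoter letters by which the class II chain genes are recognised are shown for 3 members whose windows hold them on the strand of the gene. RefSeq promoter windows (GRCm38.p6, 250 bases before to 50 bases after a gene start) were given for 6 of the 10 genes, and were not used for H2-Ab1, Cd74, Ciita and Rfxap. The X box core was searched as CTNGNAAC and the Y box core as TGATTGG on both strands, letters that, like the limit on their spacing, were chosen after the windows had been read. The motifs do not overlap in the windows printed here, in which capitals mark both cores and the gene reads 5′ to 3′. The windows lie at chr17:34287774-34288073 (minus strand) for H2-Aa, chr17:34305617-34305916 (plus strand) for H2-Eb1 and chr17:34152941-34153240 (plus strand) for H2-DMb1.
H2-Aa: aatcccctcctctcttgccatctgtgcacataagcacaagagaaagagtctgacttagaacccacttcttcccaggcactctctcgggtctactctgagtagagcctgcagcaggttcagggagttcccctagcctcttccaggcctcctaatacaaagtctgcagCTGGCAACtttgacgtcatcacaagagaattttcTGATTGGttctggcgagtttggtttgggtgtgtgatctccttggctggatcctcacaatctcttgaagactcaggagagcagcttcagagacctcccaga
H2-Eb1: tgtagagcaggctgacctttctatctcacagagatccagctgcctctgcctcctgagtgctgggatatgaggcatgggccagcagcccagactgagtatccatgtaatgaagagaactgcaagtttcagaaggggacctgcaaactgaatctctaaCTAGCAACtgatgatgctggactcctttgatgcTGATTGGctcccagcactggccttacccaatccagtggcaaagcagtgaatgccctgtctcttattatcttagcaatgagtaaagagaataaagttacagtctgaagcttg
H2-DMb1: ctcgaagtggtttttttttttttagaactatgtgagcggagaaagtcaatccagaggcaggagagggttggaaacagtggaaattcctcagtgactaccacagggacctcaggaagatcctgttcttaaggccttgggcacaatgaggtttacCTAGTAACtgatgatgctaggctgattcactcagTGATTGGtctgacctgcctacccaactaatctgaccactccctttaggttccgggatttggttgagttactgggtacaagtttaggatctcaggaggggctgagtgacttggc
An X core was followed by a Y core on the strand of the gene in these 3 windows, with 26 bases between the cores in H2-Aa, 25 in H2-Eb1 and 26 in H2-DMb1. The X core ended 76, 86 and 89 bases before the start site of the RefSeq window in that order. That site is the GENCODE gene start for H2-Aa and H2-Eb1, but lies 119 bases downstream of it for H2-DMb1. Across all 32851 windows, 13.2% held the X core, 7.82% held the Y core, and 17 windows, or 0.0517%, held an X core followed by a Y core on the gene's strand within 30 bases. On either strand the count was 28 windows, one of them that of Rfx5, where the pair lies on the opposite strand with 6 bases between. The windows of Rfxank and both windows of H2-DMa held neither core. These matches describe letters and not binding.

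The class II genes covered a wide range of levels, with the invariant chain on top and Ciita at the bottom. Levels are given in TPM from the alignment-based gene tables, a relative abundance corrected for transcript length. Of the 10 genes, 9 reached 1 TPM in every library, against 41.3% of all nuclear protein-coding genes (9084 of 22015). By the alignment-free quantification, 7 of the 10 did, against 30.1% of those genes, and with TPM rescaled to protein-coding and long noncoding genes 10 of 10 did, against 47.4%. Their median level was 7.60, 8.09 and 13.4 TPM in replicates 1, 2 and 3 (mean 9.70 ± 3.23, SD, n = 3), beside 7.78 ± 1.27 TPM for the 9084 coding genes at 1 TPM or more. In bulk RNA, a low level in every cell and a high level in few cells cannot be told apart.

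Library depth was 38623777 to 53055764 expected counts, and nuclear protein-coding genes held 22.7, 22.9 and 29.8% of TPM in replicates 1, 2 and 3. The small cytosolic RNAs Rn7s1 and Rn7s2 alone held 57.4 to 59.5%. In the alignment-based tables the TPM of messenger RNAs as a whole thus stood higher in replicate 3. In the alignment-free tables nuclear protein-coding genes held 10.7, 6.27 and 6.54% of TPM, the most in replicate 1. Comparisons between libraries below therefore use CPM, counts relative to library size, scaled by TMM factors. Libraries differed from each other by more than counting noise, with chi-square values of 62.6 to 111 per degree of freedom, so none was a copy of another.

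The cells expressed macrophage markers, and markers of the other class II-bearing cell types were scarce. All 8 macrophage markers reached 1 TPM in every library, with Lyz2 at 4141, 4025 and 6668 TPM and Adgre1, which encodes F4/80, at 139, 162 and 196 TPM. Of 10 dendritic cell markers only Batf3 did, with a summed level of 3.38 to 5.83 TPM. Xcr1 had 1, 2 and 4 counts and Zbtb46 had 23, 32 and 39 counts. Others were higher, with Itgax at 366, 592 and 382 counts and Ccr7 at 113, 145 and 87 counts. Itgax missed 1 TPM only in replicate 1, at 0.93 TPM. Of 9 B cell markers only Ighm did, at 3.42, 3.57 and 8.29 TPM, with Ebf1 at 0, 2 and 0 counts, Ms4a1 at 0, 7 and 4 counts and Cd79b at 81, 76 and 68 counts. The B cell sum was 4.27 to 9.46 TPM. The counts given here are alignment-based. In the alignment-free tables Ebf1 had 20, 43 and 12 counts, Ms4a1 had 4, 13 and 7 and Cd79b had 86, 82 and 71. Among 7 T cell markers Cd4 alone passed. Trac had no count in any library in the alignment-based tables, and 0, 2 and 0 counts in the alignment-free tables.

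Cd74 (ENSMUSG00000024610, chr18:60803848-60812652), the invariant chain gene, had 84.3, 108 and 147 TPM in replicates 1, 2 and 3, a mean of 113 ± 31.6 TPM (SD, n = 3). Its 3 values lay above every value of every other member, and 324 coding genes had a higher mean. Its expected counts were 9119, 9102 and 9115, nearly equal in libraries of unequal depth.

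H2-Aa (ENSMUSG00000036594, chr17:34282744-34287823), which encodes the alpha chain of the H2-A molecule, had 32.4, 40.0 and 58.7 TPM, a mean of 43.7 ± 13.5 TPM. H2-Ab1 (ENSMUSG00000073421, chr17:34257689-34269419), its beta chain partner, had 21.1, 25.5 and 35.6 TPM, a mean of 27.4 ± 7.46 TPM. The pooled ranges overlapped, but within each library the alpha chain was the higher one. The log2 ratio of H2-Aa over H2-Ab1 was 0.62, 0.65 and 0.72 (mean 0.66 ± 0.05, SD, n = 3; 1.58-fold), computed on TPM plus 0.1.

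H2-Eb1 (ENSMUSG00000060586, chr17:34305867-34316674) encodes the beta chain of the H2-E molecule. Its level was 20.3, 28.4 and 39.9 TPM, a mean of 29.5 ± 9.86 TPM. The log2 ratio of H2-Eb1 over H2-Ab1 was -0.06, 0.16 and 0.16 (mean 0.09 ± 0.13), so these beta chains did not separate beyond their spread. In the alignment-free tables H2-Eb1 was higher in 3 of 3 libraries, with a log2 ratio of 0.25 ± 0.07. The C57BL/6 strain is known to lack the E alpha chain. Its gene, annotated here as the pseudogene H2-Ea-ps, had 0 counts in all 3 libraries, which allows up to 0.0566, 0.0689 and 0.0777 CPM (3 counts per library, counting error only).

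The invariant chain exceeded the chains that it binds. The log2 ratio of Cd74 over H2-Aa was 1.38, 1.43 and 1.32 (mean 1.38 ± 0.06; 2.60-fold). Cd74 also exceeded the summed level of H2-Aa, H2-Ab1 and H2-Eb1, by ratios of 1.14, 1.15 and 1.09 (mean 1.13 ± 0.03, SD, n = 3).

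The subunits of the peptide exchange factor H2-DM were level with each other. H2-DMb1 (ENSMUSG00000079547, chr17:34153072-34160230), a beta chain of H2-DM, had 8.22, 7.95 and 13.5 TPM, a mean of 9.88 ± 3.11 TPM. H2-DMa (ENSMUSG00000037649, chr17:34119541-34139101), the alpha chain, had 6.98, 8.22 and 13.4 TPM, a mean of 9.53 ± 3.39 TPM. Their ranges overlapped, and the log2 ratio of H2-DMa over H2-DMb1 averaged -0.06 ± 0.15 (SD, n = 3). All values of both lay below every value of the 3 chain genes.

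H2-DMb1 was the more abundant of the annotated DM beta chain genes. Its neighbour H2-DMb2, another beta chain gene, had 0.40, 0.49 and 0.56 TPM, and the log2 ratio of H2-DMb1 over H2-DMb2 was 4.06, 3.77 and 4.36. The leading transcripts of the pair are 83.5% identical over 1414 aligned columns, so some reads could be assigned to either. H2-DMa shares 3094 bases with Brd2 on the opposite strand, and Brd2 stood at 40.8, 49.4 and 61.2 TPM. The sources used here do not say whether reads were counted by strand. Any reads on the shared bases therefore cannot be told apart from those of Brd2. How much of the H2-DMa value rests on those bases was not examined.

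The regulators stood lower than the genes they act on. Rfxap (ENSMUSG00000036615, chr3:54803115-54807791), one of the RFX subunits whose loss in humans abolishes class II expression, had 5.80, 4.15 and 6.69 TPM (mean 5.55 ± 1.29). Rfxank (ENSMUSG00000036120, chr8:70130794-70139154), the ankyrin repeat subunit, had 1.70, 2.13 and 2.71 TPM (mean 2.18 ± 0.51). Rfx5 (ENSMUSG00000005774, chr3:94954075-94961561), the DNA-binding subunit, had 1.69, 1.82 and 2.29 TPM (mean 1.93 ± 0.32). The interval that the authors give for its TPM lay above these values, at 1.71 to 2.41, 1.88 to 2.60 and 2.38 to 3.44. It was not used here. Rfxap lay above both of the others in every library, whereas the ranges of Rfxank and Rfx5 overlapped.

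Ciita (ENSMUSG00000022504, chr16:10480059-10528418), the class II transactivator, was the single member under 1 TPM, at 0.56, 0.77 and 0.90 TPM (mean 0.74 ± 0.17). It rested on 286, 312 and 269 expected counts, so it was measured well above the limit of 3 counts. Ciita was below each RFX subunit in 3 of 3 libraries. The log2 ratio was -1.28 ± 0.15 over Rfx5, -1.43 ± 0.07 over Rfxank and -2.74 ± 0.44 over Rfxap (SD, n = 3). Ciita shares 25888 bases with Dexi on the opposite strand (2.43, 2.24 and 2.72 TPM), and Rfxank shares 2417 bases with Nr2c2ap (5.20, 5.62 and 6.91 TPM), with the same limit as for H2-DMa.

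**Figure D1:**
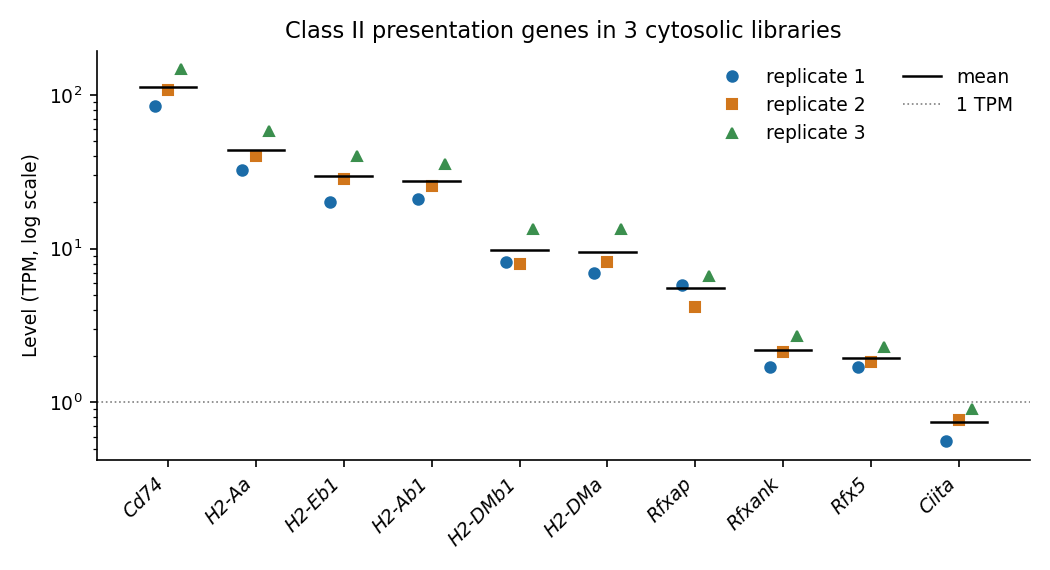
Level of each class II presentation gene in each of 3 libraries (symbols, TPM on a log axis), with the mean as a bar and 1 TPM as a dotted line. Cd74 lies between 84.3 and 147 TPM, and Ciita between 0.56 and 0.90 TPM is the single gene below the line.

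The order of levels therefore had 6 steps whose neighbours did not overlap over the 3 libraries. Cd74 came first, then the chain genes H2-Aa, H2-Eb1 and H2-Ab1 without separation of pooled ranges between neighbours. Next came H2-DMb1 with H2-DMa, then Rfxap, then Rfxank with Rfx5, and Ciita last. Within each library, however, H2-Aa stood above H2-Eb1 in both quantifications. In the alignment-free tables the order was the same except for the swapped neighbours H2-DMa with H2-DMb1 and Rfx5 with Rfxank, which overlapped in the alignment-based tables too. By pooled ranges the step between H2-DM and Rfxap was lost there. Rfxap (3.27, 1.49 and 1.72 TPM) overlapped H2-DMa (3.49, 2.31 and 2.90 TPM) and H2-DMb1 (3.46, 2.09 and 2.83 TPM). Within each library, however, Rfxap lay below both. The ratio of mean levels of Cd74 over Ciita was 152 in the alignment-based tables and 128 in the alignment-free tables.

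Class II genes were set beside the genes that serve the same pathway. Of 12 listed genes of endosomal processing and class II turnover found in the annotation, 12 reached 1 TPM in every library, and their median was 106, 146 and 133 TPM. They include Ctss, the protease that trims the invariant chain in antigen-presenting cells, at 779, 907 and 1103 TPM, and Ctsl, which does so in the thymus, at 164, 244 and 204 TPM. Ifi30, the thiol reductase GILT, was far lower at 18.9, 20.8 and 26.9 TPM. March1, the ubiquitin ligase that removes class II from the surface, had 21.1, 19.7 and 28.8 TPM.

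The DNA-binding partners of RFX at class II promoters were all expressed, 5 of 5, with a median of 5.06, 5.20 and 7.35 TPM. Nfya, an NF-Y subunit, had 18.1, 20.1 and 24.9 TPM, and Nfyb had 2.26, 2.21 and 3.19 TPM. Of 7 genes known to control Ciita, 6 reached 1 TPM, the exception being Irf4 at 0.53, 0.59 and 0.70 TPM. None of the 5 other class II genes in the annotation reached it. Among these were H2-Oa, whose product restrains H2-DM, at 0.12, 0.33 and 0.21 TPM, and its partner H2-Ob at 0.11, 0.21 and 0.19 TPM.

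In the pairs compared, class II genes stood below class I genes in these macrophages. The log2 ratio of H2-Aa over H2-K1, a class I heavy chain, was -4.60, -3.98 and -4.03, and that of Cd74 over B2m, the class I light chain, was -4.35, -3.31 and -3.95. The transactivators were ordered likewise, with Ciita over Nlrc5, the class I transactivator, at -3.43, -3.33 and -3.74. All 7 class I genes reached 1 TPM, with a median of 112, 107 and 147 TPM. By mean level B2m, H2-K1, H2-D1 and Tapbp lay above every class II member. Tap1, Tap2 and Nlrc5, at means of 24.0, 12.6 and 9.62 TPM, lay below H2-Aa, H2-Eb1 and H2-Ab1.

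**Figure D2:**
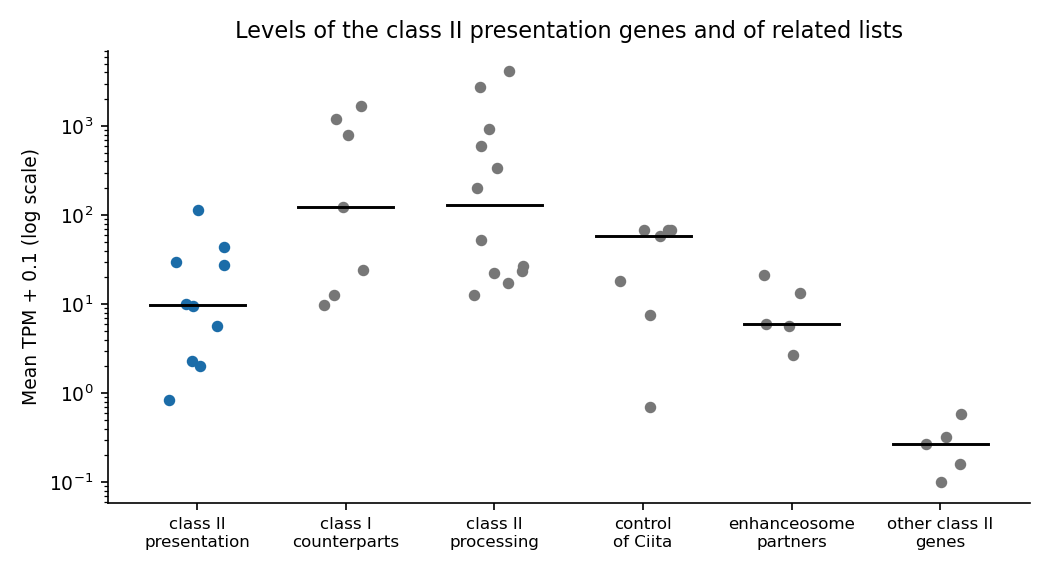
Mean TPM plus 0.1 over 3 libraries (log axis) of each class II presentation gene (blue) and of the genes of 5 related lists (grey), with the list median as a bar and points spread sideways for clarity. The class II genes span from 0.74 TPM for Ciita to 113 TPM for Cd74, while the other class II genes all lie below 1 TPM.

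The libraries were not equal in class II messenger RNA, and the 6 structural genes shared a pattern. On TMM-scaled log2 CPM, H2-Aa was 0.24 below its mean in replicate 1, 0.01 above it in replicate 2 and 0.23 above it in replicate 3. Cd74 deviated by -0.22, 0.05 and 0.17, H2-Eb1 by -0.25, 0.03 and 0.22, and H2-Ab1 by -0.19, -0.01 and 0.20. For these 4 genes replicate 1 was the low library and replicate 3 the high one.

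The exchange factor genes had the same high library, while H2-DMb1 was lowest in replicate 2. H2-DMa deviated by -0.22, -0.12 and 0.35, and H2-DMb1 by -0.09, -0.20 and 0.29. Replicate 3 was thus the highest in 6 of 6 structural genes, by 1.30-fold to 1.48-fold over replicate 1, against 34.0% of all genes highest in that library. Replicate 1 was the lowest in 5 of 6, against 26.0% of all genes. With library size alone, DESeq2 size factors, no filter, a prior count of 0.5 or alignment-free counts, 6 of 6 stayed higher in replicate 3 than in either other library.

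The regulators had no common pattern, and a difference from the structural genes was not tested. Ciita deviated by -0.23, 0.16 and 0.07, lowest in replicate 1 and highest in replicate 2, and Rfxap by 0.19, -0.17 and -0.02, with replicate 1 the highest. Rfx5 and Rfxank stayed within 0.1 of their means in every library, Rfx5 lowest in replicate 1 and Rfxank highest in replicate 3. Ciita, Rfx5 and Rfxank were 1.24-fold, 1.09-fold and 1.08-fold higher in replicate 3 than in replicate 1. The 3 libraries do not allow a test of these patterns: the exact two-sided sign permutation test cannot give less than 0.25.

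**Figure D3:**
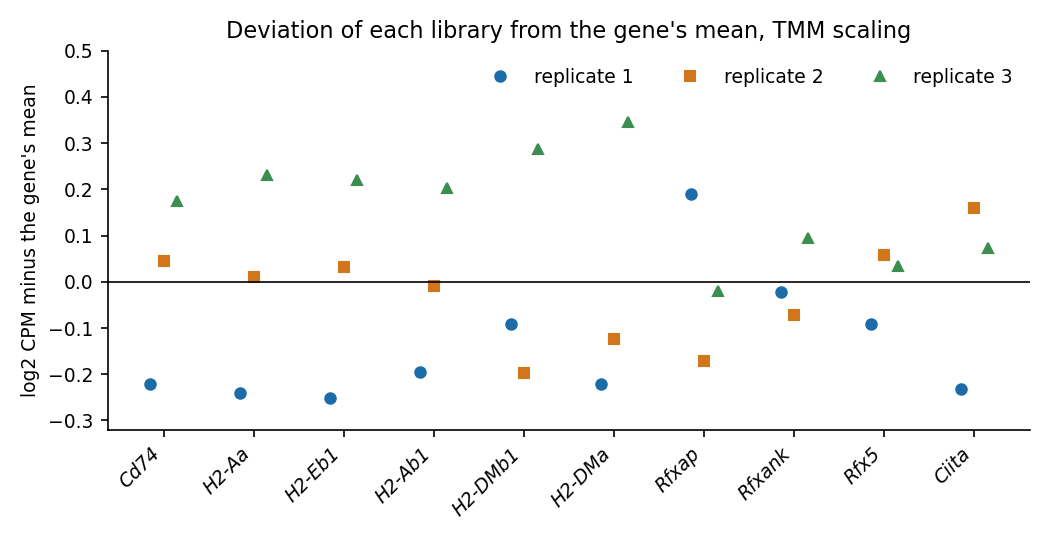
Deviation of each library (symbols) from the gene's mean, in log2 CPM after TMM scaling, for the 10 class II presentation genes ordered by level. Replicate 3 is the top symbol in each of the 6 structural genes at the left, between 0.17 and 0.35, and holds no fixed place in the 4 regulators at the right.

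The SD of log2 CPM over the 3 libraries had a median of 0.24 in the 6 structural genes and 0.13 in the 4 regulators, beside 0.13 over the 12744 genes that passed the filter. H2-Aa had an SD of 0.24, where genes in the same twentieth of mean level had a median SD of 0.08. Between 85.7 and 93.2% of genes of like level had a smaller SD than the structural genes did. Over all 10 members, each of which passed the filter, the median SD was 0.20. Without replicate 1 it was 0.13, beside 0.13 over all genes in the same libraries.

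The differences were small in size. No member differed by over 1.5-fold between any pair of libraries after TMM scaling. With library size alone, H2-DMa was 1.54-fold higher in replicate 3 than in replicate 1, where 3.88% of all genes exceeded 1.5-fold upward. Of all genes, 8.42% exceeded that fold upward and 1.92% downward in replicate 2 relative to replicate 1. Replicate 3 relative to replicate 1 gave 3.16% upward and 2.77% downward, and relative to replicate 2 it gave 4.49% upward and 10.1% downward. A count of 0 among 10 genes is near these shares.

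Other genes of the pathway can be set beside this pattern. The 12 processing genes had a median SD of 0.07, with Ctsl the most variable at 0.32 and highest in replicate 2. Among the genes that control Ciita, Irf1 was 2.25-fold higher in replicate 3 than in replicate 1, the median deviations of that list being 0.01, -0.21 and 0.19. The 8 dendritic cell markers that passed the filter had median deviations of -0.27, 0.45 and -0.15. Zbtb46, at -0.59, 0.10 and 0.49, was the only one of them highest in replicate 3. Dpp4 was highest in replicate 1 and the rest were highest in replicate 2. Of the B cell markers, Ighm deviated by -0.28, -0.29 and 0.57 and Cd79b by -0.10, 0.07 and 0.04. The part of any of these in the class II values was not tested.

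The coding genes nearest to the shared pattern were sought among 9938 with a mean count of at least 100, by the root mean square difference over 3 libraries from the median deviation of the structural genes. Outside the members the nearest were Pbx3, Fzd1, Fam213b, Prune2 and Ermard, at 0.0079 to 0.017. Of the 9938 genes, 288 lay within 0.1, so many genes shared the pattern to that degree over 3 libraries.

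Transcript shares showed which forms of each gene were present. The authors' deposited percentages from the alignment-based tables are used, with the alignment-free tables beside them. A single transcript held over 50% of the gene in every library in 7 of 10 genes. The share of all genes above that bound was not taken, so this count is not read as a trait of the members. The median leading share was 77.3 ± 2.51% (SD, n = 3), beside 79.6% for the 8436 detected coding genes with more than 1 transcript. H2-Aa-201 held 97.4 ± 1.63%, H2-DMb1-201 held 95.8 ± 3.72% and H2-Ab1-201 held 90.7 ± 2.85%. Each was the leading transcript in both quantifications.

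**Figure D4:**
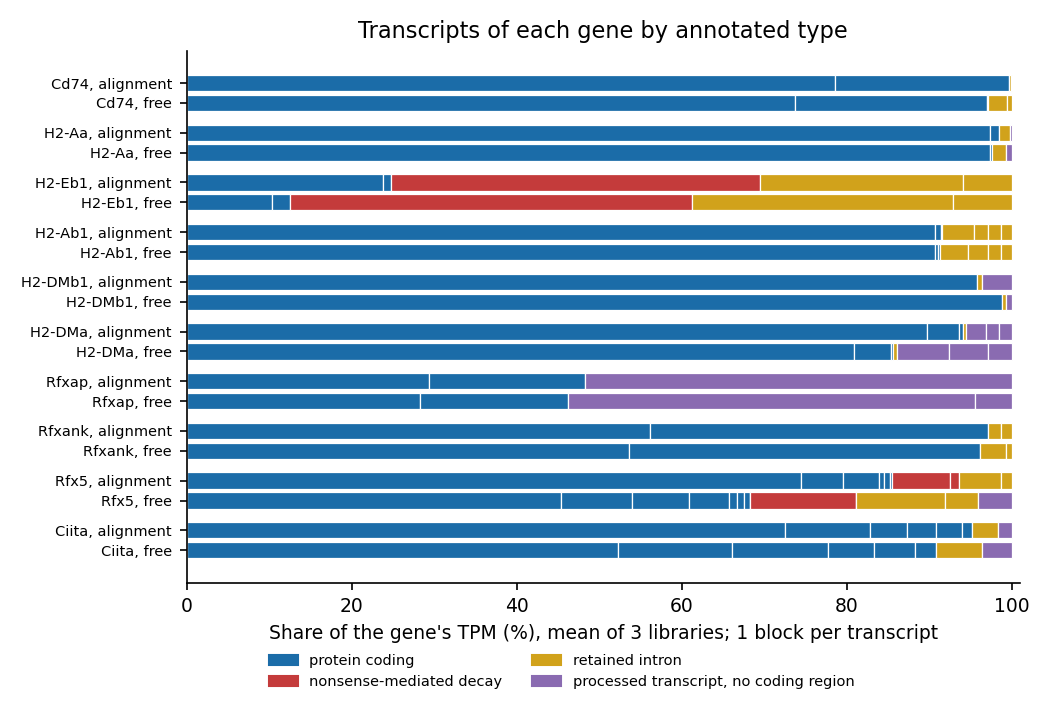
Mean share of each annotated transcript (1 block each) in the TPM of its gene over 3 libraries, coloured by annotated type, for the alignment-based (upper bar) and alignment-free (lower bar) tables. Protein-coding blocks fill most of each bar except for H2-Eb1 (24.8% and 12.5%) and Rfxap (48.3% and 46.2%).

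The invariant chain was present in both of its known forms. Cd74-201 encodes the short form, known as p31, and Cd74-202 the long form, p41, whose extra domain inhibits cathepsins. The transcripts differ by 1 coding exon of 192 bases, or 64 codons, at chr18:60811294-60811485, and by 6 bases at the end. The short form held 78.0, 76.4 and 81.5% of Cd74 TPM and the long form 21.9, 22.8 and 18.4%. In the alignment-free tables the long form held 24.5, 25.4 and 19.9%. Replicate 3 had the lowest share of the long form in both. At 18.5, 24.7 and 26.9 TPM, the long form alone exceeded H2-DMa and H2-DMb1 in every library.

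By TPM, H2-Eb1 differed from the other chain genes in that an annotated nonsense-mediated decay transcript led. H2-Eb1-205 held 42.9, 40.5 and 50.6% of the gene, the retained-intron transcript H2-Eb1-204 held 23.7, 27.2 and 23.0%, and the coding transcript H2-Eb1-203 held 29.9, 22.5 and 19.3%. In the alignment-free tables H2-Eb1-205 led as well, with 47.5, 44.9 and 53.7%, and H2-Eb1-203 held 12.3, 9.71 and 8.96%. By counts the longer H2-Eb1-203 held 44.9, 36.4 and 31.0% and H2-Eb1-205 held 38.4, 39.2 and 49.0%, so the coding transcript led in replicate 1. On the TPM scale H2-Eb1-203 had 6.05, 6.39 and 7.68 TPM, well below H2-Ab1-201 with 18.8, 22.6 and 33.5 TPM. The leading coding transcripts of H2-Eb1 and H2-Ab1 thus differed in level in every library.

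H2-Eb1-205 lacks the first 53 bases of exon 2 as H2-Eb1-203 has it (chr17:34309591-34309643, plus strand, mm10). This exon encodes the outer, peptide-binding domain of the beta chain, and 53 is not a multiple of 3. The annotated coding region is 276 bases long in H2-Eb1-205 and 792 bases in H2-Eb1-203. The joins of exons 1 and 2 read as follows in GENCODE M21, with the 53 bases in capitals.
H2-Eb1-203: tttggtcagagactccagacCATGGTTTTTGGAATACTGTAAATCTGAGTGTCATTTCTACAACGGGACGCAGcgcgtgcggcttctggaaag
H2-Eb1-205: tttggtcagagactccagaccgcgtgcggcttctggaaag
The same transcripts also differ at their ends, where H2-Eb1-203 is longer by 59 bases at the start and by 475 bases at the far end. Shares rest on all of these differences, and reads across the join were not analysed here.

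**Figure D5:**
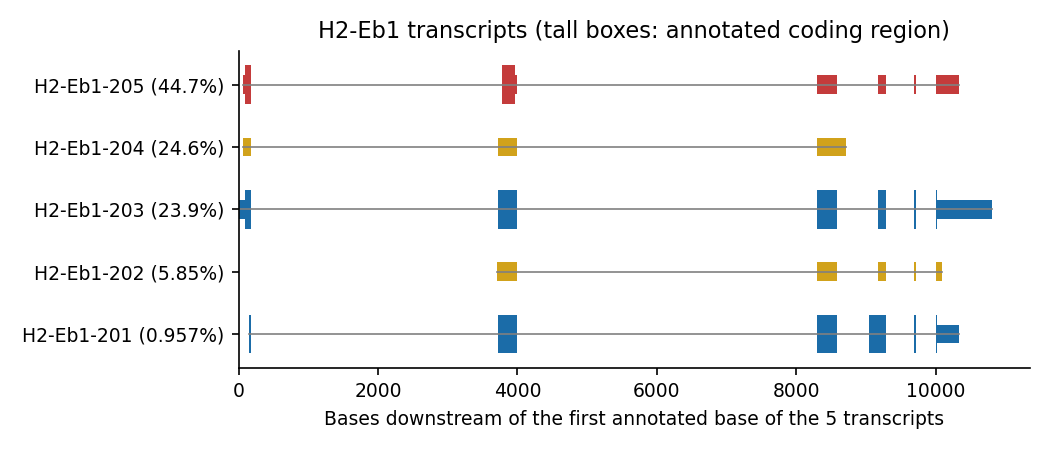
Exons of the 5 annotated H2-Eb1 transcripts, by distance in bases from the first annotated base, with coding regions as tall boxes, colours as for the transcript types and the mean share of the gene's TPM in brackets. H2-Eb1-205, at 44.7%, stops coding within exon 2, and H2-Eb1-203, at 23.9%, has the longest last exon.

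Among all 8436 detected coding genes with more than 1 transcript, 4.45% had a leading transcript that was not annotated as coding. This held for 2 of the 10 members, H2-Eb1 and Rfxap. The share on protein-coding transcripts had a median over members of 94.0 ± 2.21%, beside 96.9% over the 8436 genes. For H2-Eb1 it was 31.1, 23.4 and 19.9%, and for Rfxap 51.2, 49.7 and 43.8%.

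Rfxap was led by Rfxap-203, a transcript of 478 bases with no annotated coding region, at 48.8, 50.3 and 56.2% of TPM. By counts it held 17.5%, and the coding transcript Rfxap-201, of 2162 bases, held 71.0%. Rfxap-204, a shorter coding transcript, held 24.6, 14.7 and 17.2% of TPM and 28.3% in the alignment-free tables. Without Rfxap-203 the gene had 2.97, 2.06 and 2.93 TPM, which is above Rfx5 in every library and above Rfxank in replicates 1 and 3. In replicates 2 and 3 these values lie within the interval given for the TPM of Rfx5.

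Rfxank was split between 2 coding transcripts, and the quantifications disagreed on the larger. Rfxank-201 held 65.0, 45.9 and 57.7%, and Rfxank-203, with 30 more coding bases (10 codons) and without the last 2460 bases of Rfxank-201, held 33.4, 51.1 and 38.4%. In the alignment-free tables Rfxank-203 led with 49.4, 57.8 and 53.8%. Rfx5-207 led Rfx5 in both, at 74.5 ± 3.71% in the alignment-based tables and 45.3 ± 6.87% in the alignment-free tables. There Rfx5-209, a nonsense-mediated decay transcript, held 12.9% and the retained-intron transcript Rfx5-216 held 10.8%, against 7.12% and 5.05% in the alignment-based tables.

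H2-DMa was assigned mostly to a transcript with an inner start. H2-DMa-205 held 89.6, 86.3 and 93.4%, and 77.9, 76.9 and 88.0% in the alignment-free tables, and begins 12796 bases downstream of H2-DMa-201. Its start lies 10110 bases from the start site of the nearest RefSeq promoter window of the gene. Those windows therefore do not cover the start of the leading transcript.

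Ciita transcripts start in 3 separate places, which follow the order of the known promoters pI, pIII and pIV. Promoter pI is known for use in dendritic cells, pIII in B cells and pIV for the response to interferon-gamma. The first group of starts (Ciita-205, Ciita-206 and Ciita-207) held 12.4, 12.0 and 19.4% of Ciita TPM. The second (Ciita-201 and Ciita-202), 8119 bases downstream, held 73.9, 79.0 and 69.6%, and the third (Ciita-203, Ciita-204 and Ciita-208), 9687 bases downstream of the first, held 13.7, 8.93 and 11.0%.

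In every library the second group led, and it did so in the alignment-free tables too, with 56.0, 63.4 and 48.4%, against 24.0, 19.8 and 22.0% for the first and 19.9, 16.9 and 29.7% for the third. Ciita-201 carries 1992 bases at its far end that Ciita-205 and Ciita-203 lack, so its share rests partly on reads there and not on the start. In the alignment-based tables the whole gene had at most 312 counts, and the third group 12, 5 and 18 counts. In the alignment-free tables the gene had at most 368 counts, and the third group 24, 11 and 36. By alignment-based counts the first group held 10.1, 8.97 and 14.1%, the second 85.6, 89.6 and 79.0% and the third 4.30, 1.46 and 6.87%. The shares of the start groups are thus coarse. Whether RNA of other cell types contributed to them was not tested.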

How the data were processed

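Cytosolic RNA of lipid A-treated macrophages was measured in 3 libraries of 1 group. Per the deposited text files, the tables use mm10 and GENCODE M21. The authors deposited expected counts, TPM and the percent of a gene's TPM on each transcript from transcriptome alignments (columns as RSEM writes them), and estimated counts and TPM made from the reads without alignment (columns as kallisto writes them). The sources used here name no tool version. Per the deposited tables, TPM sums over all RNAs, so abundant small RNAs lower it for every gene.

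Members were matched by symbol; alignment-free transcript values were added up per gene. Expected counts were rounded, filtered with filterByExpr and scaled by TMM in edgeR 4.0.16 (R 4.3.3), with a prior count of 2. Size factors of DESeq2 1.42.0 were an alternative. The code was checked on simulated counts. Ratios used a pseudocount of 0.1 TPM, which understates differences of low genes. Rows other than genes (0.0395 to 0.186% of counts) were left out. Depth sets the precision: 3 counts, the limit for a gene at 0, equal 0.0566 to 0.0777 CPM. Neighbours in the order were called separate where their ranges did not overlap. With 1 group, no test between groups was possible.

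Named were all members, transcripts with at least 10% of a gene in either quantification, genes of the listed pathways and the 5 genes nearest in pattern. Some listed genes are not reported here. The members and lists were chosen with earlier results of these data known. Sequences are from RefSeq (GRCm38.p6) and GENCODE M21.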

Additional observations from a re-analysis of the deposited data

How the results depend on the processing

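The count of genes at 1 TPM or more, 9 of 10, was 10 at 0.5 TPM, 6 at 5 TPM and 7 in the alignment-free tables (there beside 30.1% of coding genes), and 10 with TPM rescaled to coding and long noncoding genes (beside 47.4%). The median level was 2.85 TPM in the alignment-free tables and 35.9 TPM with that rescaling, since the denominators differ, and 7.84 to 10.8 TPM with 1 library left out. No ratio called in all 3 libraries changed sign in the alignment-free tables. Another pseudocount or a library left out could not change the sign of such a ratio. In the alignment-free tables the log2 ratio was 0.25 for H2-Eb1 over H2-Ab1, 1.45 for Cd74 over H2-Aa and -1.18 for Ciita over Rfxank. With a pseudocount of 1 TPM, Ciita stood at -0.75 over Rfx5, -1.89 over Rfxap and -0.86 over Rfxank, and with 0.01 TPM at -1.54 over Rfxank. The median spread of members was 0.126 to 0.273 with 1 library left out, the lowest without replicate 1. The median leading share was 64.2% in the alignment-free tables and 86.2% by counts, and the median protein-coding share was 91.1% in the alignment-free tables; the cause was not tested. Of 135 values under other settings, 84 moved by less than 1 SD between libraries (or, for spreads and counts, by less than 1.5-fold). The other 51 moved by more. Among ratios of 1 sign in all 3 libraries, 0 reversed, which only the alignment-free tables could have shown. With 1 library left out, 146 of 156 stayed within those bounds. For levels, ratios and shares this was fixed in advance, since leaving out 1 of 3 values cannot move their mean by 1 SD. The 10 that moved were all spreads. No paired analysis was possible because the samples form a single group. The uncalled ratio of H2-DMa over H2-DMb1 changed sign, to 0.06 in the alignment-free tables and 0.02 without replicate 1. Depth limits the shares of low genes such as Ciita.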

Other observations

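Cd4, whose product is the receptor that binds class II on T cells, had 24.4, 20.9 and 25.2 TPM in replicates 1, 2 and 3. It lay between the class II chain genes in replicate 1 and below H2-Aa, H2-Ab1 and H2-Eb1 in replicates 2 and 3. Cd3e had 0, 1 and 1 counts (0, 3 and 2 in the alignment-free tables). Cd3d had 3, 3 and 1 counts (20, 35 and 8 in the alignment-free tables). Ighm, the immunoglobulin heavy chain gene, had 483, 397 and 663 counts beside 6, 8 and 3 for Cd79a.

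H2-Ob had 9, 23 and 10 counts in the alignment-based tables and 131, 211 and 83 in the alignment-free tables, so the alignment-free value was the higher one in every library. Its promoter window holds an X core followed by a Y core with 23 bases between them, as those of H2-Aa, H2-Eb1 and H2-DMb1 do, while its TPM stayed at 0.21 or less.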
